A study of Mus musculus with 12 samples.

Results

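The mitochondrial respiratory chain is built mostly from proteins encoded in the nucleus, and 9 of the genes concerned were described here, out of 2398 genes in the count table. They were found by matching the table's Entrez Gene identifiers to mouse symbols, and all 9 were found. Ndufs1 and Ndufs7 encode core subunits of complex I, Ndufb3, Ndufa10 and Ndufa12 accessory subunits of complex I, Sdhc a subunit of complex II, Uqcr11 a subunit of complex III, and Cox5b a subunit of complex IV. Bcs1l encodes an assembly factor of complex III, so the group holds 8 subunits and 1 gene whose product helps to build a complex.

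The respiratory chain passes electrons from NADH and succinate to oxygen through complexes I to IV of the inner mitochondrial membrane, and the proton gradient that results drives ATP synthesis. Complexes I, III and IV also contain proteins made from mitochondrial DNA, so nuclear and mitochondrial transcripts must both be supplied, whereas complex II is encoded wholly in the nucleus. Oligodendrocytes use respiration heavily while they build myelin, and mature oligodendrocytes are known to release lactate to axons. Mutations in subunits and assembly factors of complex I are known causes of leukodystrophy and Leigh syndrome in people.

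The cells were oligodendrocytes sorted from mouse brain as positive for the Ndrg1-EGFP reporter, which marks myelinating oligodendrocytes, and negative for propidium iodide, a dye taken up by dead cells. All animals were C57BL/6 mice given as postnatal day 60 in one label and 8 weeks in another, and all carried the reporter and floxed alleles of Lmna, the gene of the nuclear lamina proteins lamin A and lamin C. The WT group was Cnp+/+;Lmnafl/fl and the KO group was CnpCre/+;Lmnafl/fl, in which Cre is made from 1 allele of the oligodendrocyte gene Cnp. The genotypes thus differed in the presence of Cre and in how many Cnp alleles were intact, and not by the intended loss of Lmna alone. Each genotype had 3 biological replicates with 2 libraries each, and the labels do not say whether a replicate was 1 animal or a pool.

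Of the 2398 genes analysed, the 2226 that matched a RefSeq symbol lie on chromosomes 1 and 10. The other 172, with 0.552% of the counts, had no position. Lmna, Cnp and the genes of mitochondrial DNA were not analysed here, so the loss of Lmna was not checked. Counts in all genes analysed came to between 3694551 and 6093336 per replicate, which is part of each library and not its depth. The 2 libraries of a replicate differed little beyond sampling noise (chi-square of 1.00 to 1.06 per degree of freedom, against 20.8 to 76.1 for different replicates) and were summed, so n = 3 per genotype. Of 15 markers of mature oligodendrocytes listed, the 4 present in the table (Adamts4, Nfasc, Cntn2 and Tmeff2) summed to between 39460 and 42040 CPM in WT and between 45250 and 49380 CPM in KO. In Adamts4 (means of 6582 CPM in WT and 9388 in KO) and Nfasc (4788 and 6434) every KO replicate lay above every WT replicate. Replicates lay apart in that direction in 4.45% of all genes tested. Cntn2 (10420 and 11340 CPM) and Tmeff2 (18860 and 19530) overlapped between the genotypes, so the 4 markers differed in this. CPM gives the reads of a gene relative to all reads in the analysed genes, on a common scale set by the normalisation factors. Whether the difference in that sum plays a part in the levels below was not tested. In sorted bulk samples, fewer cells of a type and less RNA per cell cannot be told apart.

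The stretches upstream of 4 of the genes are shown because position and promoter letters are what these genes can be compared on besides their levels. They are RefSeq promoter windows of GRCm38 (the assembly also called mm10), cut to the longest part outside every annotated gene, and each is written 5′ to 3′ on the strand of its gene. Capitals mark the NRF1 core CATGCGC, the ETS core CCGGAAG and the CCAAT box on either strand. These are motifs of factors known to act at respiratory genes or at housekeeping promoters. The stretches are chr1:36691237-36691448 for Cox5b, chr10:80406831-80407071 for Uqcr11 on the minus strand, chr1:58586334-58586383 for Ndufb3 and chr1:74588247-74588288 for Bcs1l.
Cox5b: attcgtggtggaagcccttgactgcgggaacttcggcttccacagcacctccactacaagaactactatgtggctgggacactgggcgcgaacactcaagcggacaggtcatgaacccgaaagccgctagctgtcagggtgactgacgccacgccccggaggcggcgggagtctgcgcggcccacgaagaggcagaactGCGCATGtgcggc
Uqcr11: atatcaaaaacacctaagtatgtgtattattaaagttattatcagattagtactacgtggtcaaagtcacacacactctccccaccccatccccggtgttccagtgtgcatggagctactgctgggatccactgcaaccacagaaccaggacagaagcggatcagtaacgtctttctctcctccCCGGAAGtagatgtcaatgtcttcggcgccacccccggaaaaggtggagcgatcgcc
Ndufb3: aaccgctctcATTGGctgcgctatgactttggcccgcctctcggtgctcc
Bcs1l: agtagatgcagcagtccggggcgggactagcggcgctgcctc

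The Cox5b stretch holds 1 NRF1 core, the Uqcr11 stretch 1 ETS core and the Ndufb3 stretch 1 CCAAT box. Promoter windows were matched for 7 of the 9 genes, all but Ndufs1 and Sdhc. Over these whole windows the NRF1 core was found in Cox5b and Uqcr11, 2 of 7, and in 3.91% of all 32851 RefSeq promoter windows of the same length. The ETS core was found in Bcs1l and Uqcr11, 2 of 7, and in 8.86% of all windows. The CCAAT box was found in Ndufb3, 1 of 7, and in 37.4% of all windows. The GC box GGGCGG was found in Bcs1l, Ndufa10 and Ndufa12, 3 of 7, and in 35.7% of all windows. None of the motifs contains another. They were chosen with these windows in view, and a match is a description of letters only.

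Some of the genes lie head to head with another protein-coding gene, with at most 200 bases between their starts. Among them are Ndufs1 with Eef1b2 (8 bases), Ndufb3 with Fam126b (63 bases) and Bcs1l with Zfp142 (155 bases). The short stretches printed for Ndufb3 and Bcs1l therefore lie between a respiratory gene and its divergent neighbour.

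In complex I, the core subunit genes Ndufs1 and Ndufs7 were at similar levels in both genotypes. Ndufs1, on chromosome 1 from 63143592 to 63176822, encodes the largest subunit of the peripheral arm, an iron-sulfur protein of the NADH-oxidising module. It stood at 1445, 1738 and 1502 CPM in WT replicates 1, 2 and 3 and at 1619, 1241 and 1562 CPM in KO replicates 1, 2 and 3. The lowest value was that of KO replicate 2 and the highest that of WT replicate 2, and the genotypes overlapped. The log2 fold change, KO over WT, was -0.08 ± 0.13 (SE), with a 95% interval from -0.39 to 0.22.

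Ndufs7, on chromosome 10 from 80249105 to 80256794, encodes the subunit that carries the last iron-sulfur cluster before ubiquinone. It stood at 3231, 3039 and 2820 CPM in the WT replicates and at 3176, 2929 and 2671 CPM in the KO replicates. The values of the genotypes interleaved, and the log2 fold change was -0.05 ± 0.11 (SE), with a 95% interval from -0.30 to 0.20. The log2 ratio of Ndufs7 to Ndufs1 CPM ranged from 0.81 to 1.16 in WT and from 0.77 to 1.24 in KO, so the balance of these core subunit transcripts varied as much within a genotype as between genotypes. A mean of 0.96 ± 0.18 (SD, n = 3) in WT stood beside 1.00 ± 0.23 in KO.

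The accessory subunit genes of complex I differed widely in level. Ndufb3, on chromosome 1 from 58586397 to 58595964, encodes a small subunit of the membrane arm. It stood at 1130, 923 and 966 CPM in WT and at 926, 882 and 922 CPM in KO. WT replicate 1 stood above the other 5 replicates, and WT replicate 2 lay among the KO values. Its log2 fold change of -0.14 ± 0.11 (SE; 95% interval from -0.40 to 0.11) was the furthest from 0 of the 8 genes tested.

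Ndufa10, on chromosome 1 from 92439486 to 92473825, encodes a subunit of the membrane arm that resembles nucleoside kinases. It stood at 1737, 1986 and 1509 CPM in WT and at 1773, 1750 and 1862 CPM in KO. All 3 KO values fell inside the range of the WT values, and the log2 fold change was 0.04 ± 0.12 (SE; 95% interval from -0.23 to 0.31). Ndufa12, on chromosome 10 from 94199035 to 94221440, encodes a subunit of the peripheral arm. It stood at 271, 265 and 209 CPM in WT and at 258, 246 and 205 CPM in KO, with replicate 3 the lowest of each genotype. Its log2 fold change was -0.07 ± 0.15 (SE; 95% interval from -0.42 to 0.28). The 5 complex I transcripts together came to 7590.0 ± 511 CPM in WT and 7341 ± 366 in KO (SD, n = 3).

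Complex II, succinate dehydrogenase, was represented by Sdhc, 1 of the subunits that anchor the enzyme in the membrane. Sdhc lies on chromosome 1 from 171129157 to 171150640 and stood at 1430.0, 1387 and 1271 CPM in WT and at 1347, 1272 and 1318 CPM in KO. All 3 KO values lay between the lowest and the highest WT value. The log2 fold change was -0.05 ± 0.10 (SE; 95% interval from -0.28 to 0.17).

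For complex III the 2 genes gave very different readouts. Uqcr11, which encodes a small subunit of the complex, lies on chromosome 10 from 80402997 to 80406821. It had 3 counts in all 12 libraries together, 2 in WT replicate 1 and 1 in WT replicate 2, and 0 in the other 4 replicates. A count of 0 in a replicate allows a level of up to 3 counts, which is between 0.475 and 0.855 CPM depending on the replicate, for counting error only. No gene of the RefSeq table overlaps Uqcr11, and its nearest neighbour in the count table, Tcf3, lies 2719 bases away. Uqcr11 did not pass the filter on low counts, so 8 of the 9 genes were tested and no fold change is given for Uqcr11. Whether the transcript was scarce or its reads were not assigned to the gene was not tested, since no source used here gives the annotation or settings of the counting.

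Bcs1l, on chromosome 1 from 74588289 to 74592443, encodes the ATPase that inserts the Rieske iron-sulfur protein into complex III. It stood at 216, 241 and 198 CPM in WT and at 186, 179 and 242 CPM in KO. KO replicate 3 was level with WT replicate 2 at the top of the range, and KO replicates 1 and 2 were the lowest values. The log2 fold change was -0.11 ± 0.16 (SE), and its 95% interval, from -0.47 to 0.25, was the widest of the 8.

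Complex IV, cytochrome c oxidase, was represented by Cox5b, a subunit on the matrix side of the enzyme. It lies on chromosome 1 from 36691487 to 36693388 and stood at 2151, 1963 and 1928 CPM in WT and at 2069, 2110.0 and 1963 CPM in KO. The values of the genotypes interleaved. The log2 fold change was 0.02 ± 0.10 (SE; 95% interval from -0.20 to 0.25).

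**Figure D1:**
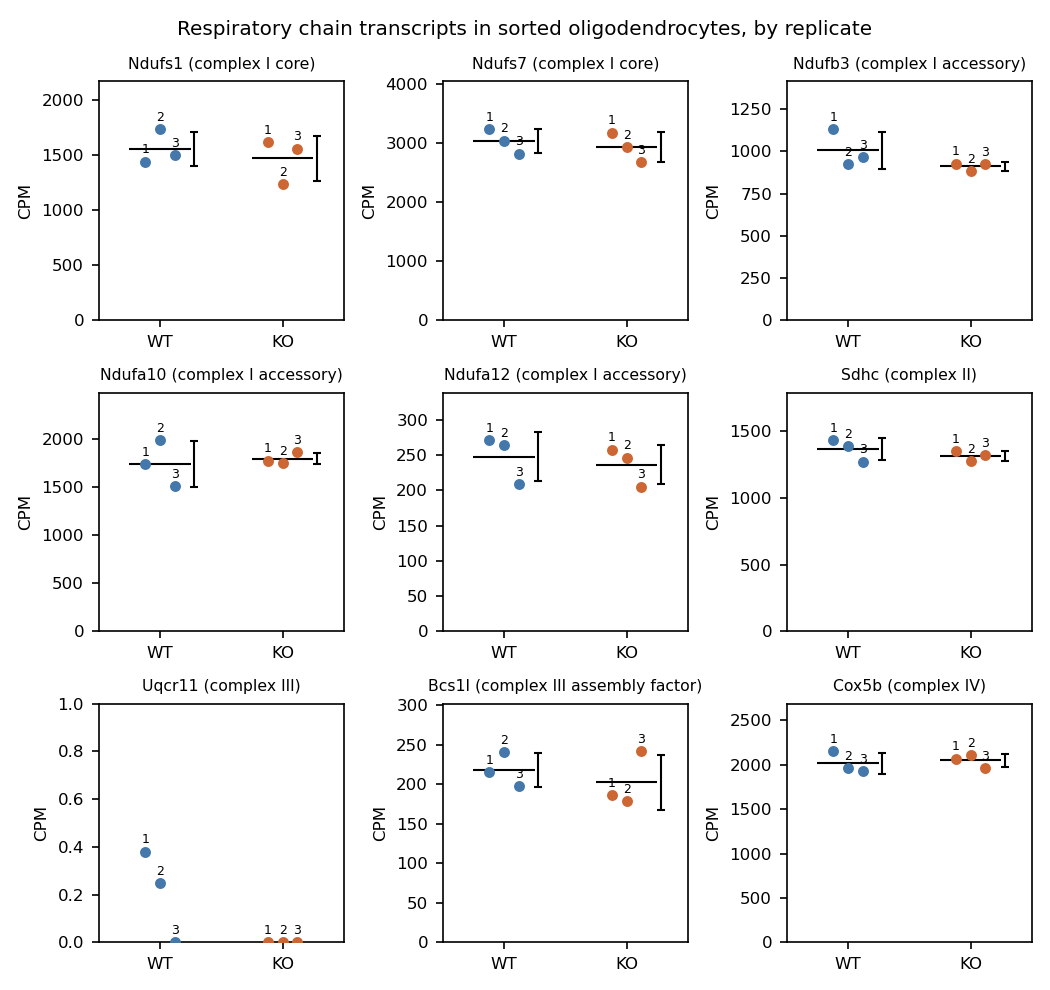
Level of each of the 9 transcripts in CPM (vertical axes, from 0) in the 3 WT and 3 KO replicates, 1 panel per gene; points are replicates with their numbers, horizontal lines are means and bars are SD, both left out for Uqcr11. The WT and KO points overlap in all 8 tested genes, and Uqcr11 stays under 1 CPM in every replicate.

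In the comparison of the genotypes, none of the 8 respiratory genes tested passed the threshold for a difference. With edgeR's quasi-likelihood test and Benjamini-Hochberg adjustment over 1484 genes, 0 of the 8 passed an adjusted p of 0.05 in either direction, where 0% of all genes tested were called higher and 0% were called lower. All 8 had an adjusted p of 0.994 in edgeR, the smallest unadjusted edgeR p was 0.229, for Ndufb3, and at an unadjusted p under 0.05 there were 0 of 8, where 3.98% of all genes had one. DESeq2 on the same replicates also called 0 of the 8, where it called 0.472% of all genes. The WT and KO replicates overlapped in all 8, while they lay apart in 8.49% of the genes tested, higher in KO in 4.45% and lower in 4.04%. The log2 fold change lay below 0 in 6 of the 8, with a median of -0.06, where 50.5% of all genes lay below 0 and the median was -0.01. That count was 7 when library totals alone set the scale or without WT replicate 3, 5 without WT replicate 2 or KO replicate 2, and 4 without KO replicate 3. An exact permutation test of 3 replicates against 3 cannot give a two-sided p under 0.1 for a single gene.

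Each 95% interval describes the difference of 1 gene on the CPM scale of the analysed genes, and the 8 intervals have no joint coverage. The bound of 0.5 used next was not part of the planned tests, and the interval of Bcs1l came close to it, at -0.47. All 8 had a 95% interval within 0.5 log2 units of 0, where 37.7% of all genes tested did, and 75.6% of the 652 genes whose mean CPM was at least that of Bcs1l. The lowest bound was 0.721-fold, for Bcs1l, and the highest was 1.24-fold, for Ndufa10. Cox5b and Sdhc had the narrowest intervals of the 8, from 0.871-fold to 1.19-fold and from 0.825-fold to 1.12-fold.

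**Figure D2:**
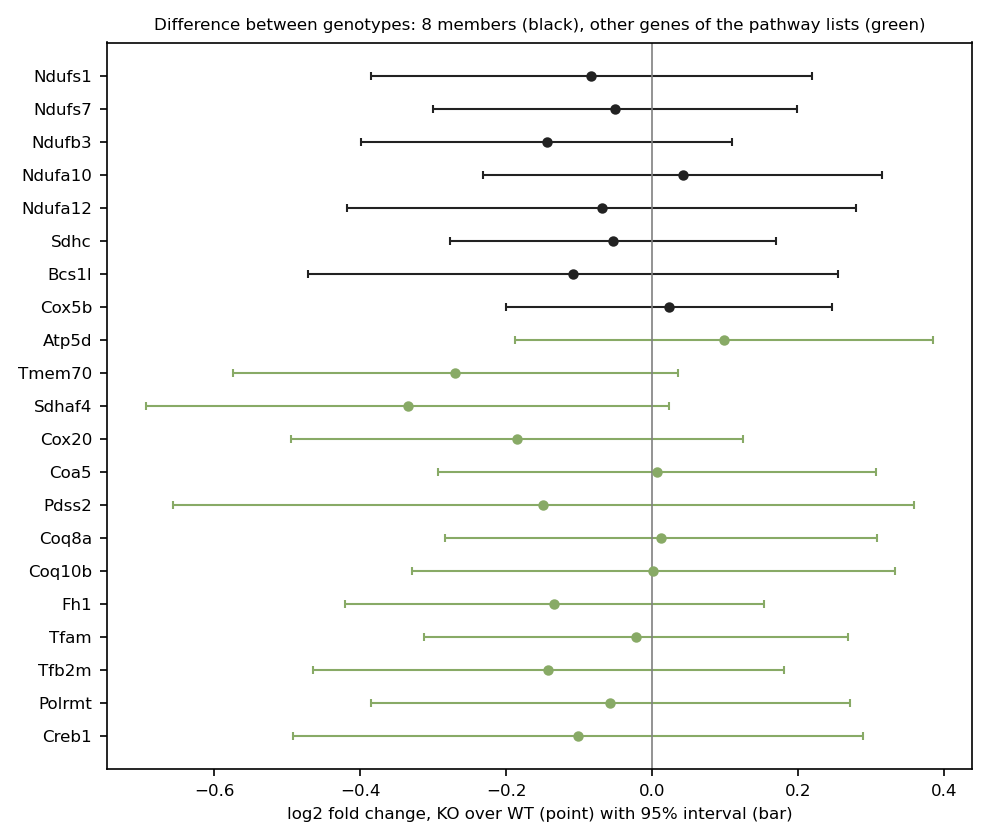
Log2 fold change, KO over WT (horizontal axis), with its 95% interval for the 8 tested respiratory genes (black) and 13 other genes of the pathway lists (green), 1 row per gene. Every interval crosses 0, and those of the 8 genes stay between -0.47 and 0.31.

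The spread between replicates was larger than counting error in each of the 8 genes. Within a genotype the coefficient of variation of CPM ran from 4.73% for Sdhc and 4.96% for Cox5b to 12.8% for Ndufa12 and 13.9% for Bcs1l. Counting error alone gave a coefficient of variation from 0.839% for Ndufs7 to 3.17% for Bcs1l. The 2 libraries of a replicate differed by a median of 0.03 on the log2 scale over 48 pairs of a gene and a replicate, and by more than 2 binomial standard deviations in 3 of the 48. The largest such difference was 0.32, for Bcs1l in KO replicate 1. The SE of the log2 fold change had a median of 0.12 for the 8 genes, 0.13 for all genes with at least the mean CPM of Bcs1l, and 0.21 for all genes tested.

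**Figure D3:**
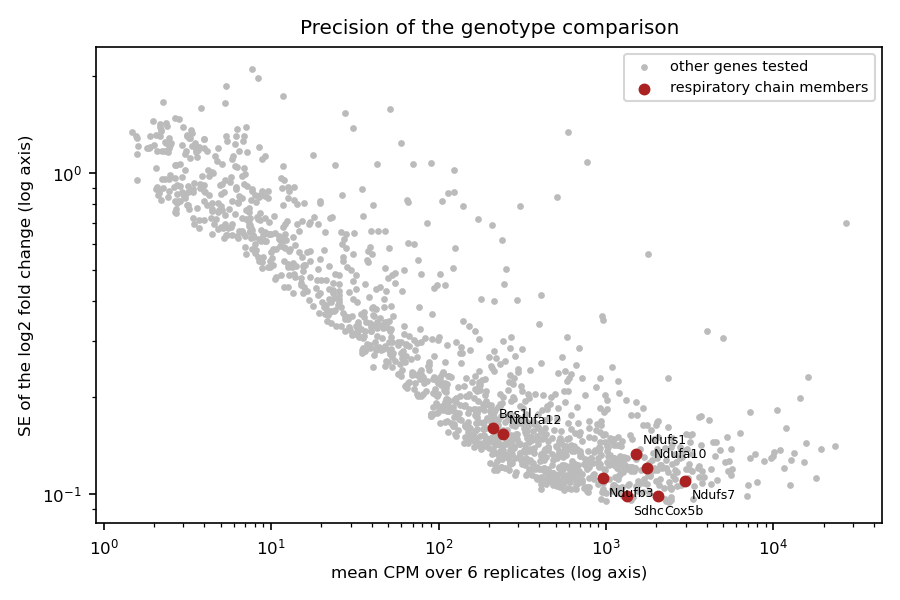
SE of the log2 fold change (vertical log axis) against mean CPM over the 6 replicates (horizontal log axis) for the genes tested that have a symbol, with the 8 respiratory genes in red. The 8 lie between an SE of 0.10 and 0.16, with Ndufa12 and Bcs1l, the least abundant, at the top of that range.

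The transcripts did not move as 1 block across replicates. Each gene was set to its own mean over the 6 replicates on the log2 scale. In WT replicate 1, 6 of the 8 lay above their mean, in WT replicate 2 also 6, in KO replicate 1 also 6, in KO replicate 3 there were 3, in KO replicate 2 there were 2 and in WT replicate 3 there was 1. Ndufs1 and Bcs1l had their lowest values in KO replicate 2, at -0.28 and -0.22, where Cox5b lay at 0.06 and Ndufa12 at 0.03. In KO replicate 3, Bcs1l lay at 0.21 and Ndufa12 at -0.23. Sdhc followed the mean profile of the 8 most closely, with a root mean square distance of 0.02 log2 units, and Bcs1l least closely, with 0.14. The highest replicate exceeded the lowest by 1.12-fold for Cox5b and by 1.401-fold for Ndufs1.

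**Figure D4:**
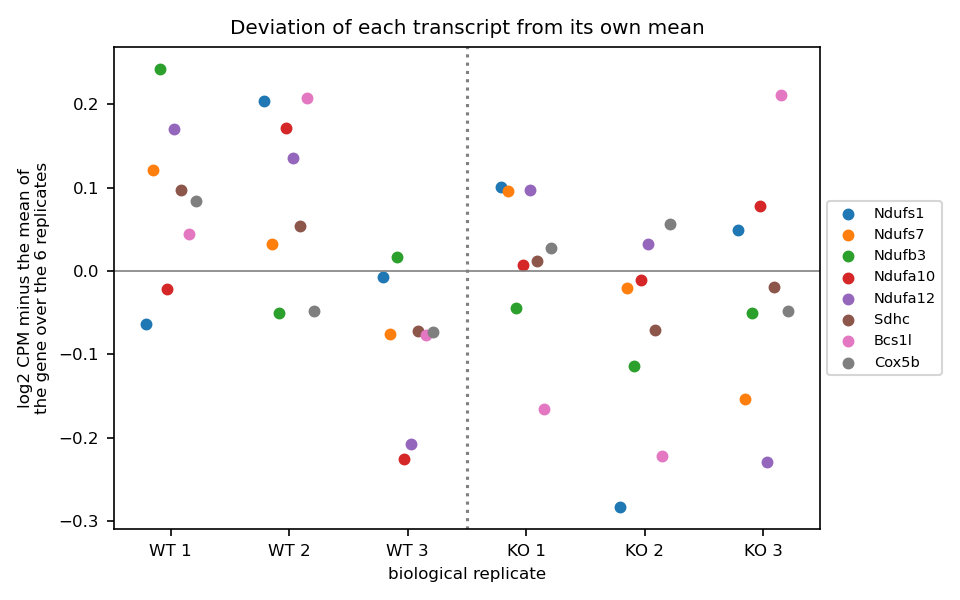
Deviation of log2 CPM from the mean of the gene over the 6 replicates (vertical axis) in each replicate (horizontal axis), with 1 colour for each of the 8 tested genes; the dotted line separates WT from KO. In WT replicate 3 all but Ndufb3 lie below 0, and in each of the other replicates, WT and KO, the genes spread to both sides.

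Markers of other cells and of tissue handling varied more between replicates than the respiratory genes did. The 4 immediate early genes in the table, which cell dissociation can induce, summed to between 285 and 3564 CPM in WT and between 393 and 2426 CPM in KO, with WT replicate 3 the highest and WT replicate 2 the lowest. By replicate the sums were 1606, 285 and 3564 CPM in WT and 393, 2426 and 1208 CPM in KO. In the same order, 6, 6, 1, 6, 2 and 3 of the 8 respiratory genes tested lay above their mean. In WT replicate 3 all of them but Ndufb3 lay below, and a part of dissociation in the respiratory gene levels was not tested. The 2 astrocyte markers in the table, of 8 listed, summed to between 271 and 661 CPM in WT and between 435 and 924 CPM in KO, and the 2 microglia and macrophage markers, of 11 listed, to between 41.5 and 85.5 CPM and between 47.0 and 242 CPM. The 2 neuronal markers, of 8 listed, summed to between 7.03 and 247 CPM in WT and between 10.5 and 46.9 CPM in KO, and the 2 progenitor markers, of 7, to between 121 and 229 CPM and between 133 and 158 CPM. The 5 mural cell and fibroblast markers, of 8, summed to between 83.5 and 475 CPM in WT and between 250.4 and 639 CPM in KO. Nearly all of that sum came from Dcn, Fn1, Col3a1 and Lum. The mural cell marker Rgs5 had 6 counts in all, reached no more than 0.8545 CPM in any replicate and did not pass the filter on low counts. WT replicate 3 also had the highest neuronal and progenitor sums, and the lowest astrocyte and mural cell and fibroblast sums, of all replicates. Kcnj13, the choroid plexus marker, stood between 4.97 and 131 CPM in the WT replicates and between 1.58 and 16.2 CPM in the KO replicates, and no endothelial marker was among the genes analysed. No listed marker in the table was at 0 in all replicates, and the part of these cells in the respiratory gene levels was not tested.

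Per length of transcript, the 9 genes had the same order of abundance in every replicate. CPM was divided by the length in kilobases of the longest transcript of each gene in GENCODE M21, since counts grow with length. Ndufs7 stood highest, at 3082 ± 209 CPM per kilobase in WT and 2976 ± 257 in KO (SD, n = 3). Cox5b followed at 2329 ± 139 in WT and 2367 ± 87.6 in KO, then Ndufb3 at 1319 ± 143 and 1193 ± 31.7 CPM per kilobase. Ndufa10 stood at 863 ± 118 in WT and 889 ± 29.1 in KO, and Ndufs1 at 587 ± 58.4 and 554 ± 76.7 CPM per kilobase. These values place the accessory subunit Ndufa10 above the core subunit Ndufs1 on the scale per length. Sdhc stood at 430.0 ± 26.0 and 414 ± 11.96 CPM per kilobase in WT and KO, Ndufa12 at 179 ± 24.8 and 171 ± 19.8, Bcs1l at 116 ± 11.5 and 107 ± 18.2, and Uqcr11 at no more than 0.628 in any replicate.

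No neighbours in that order overlapped over the 6 replicates. The closest were Ndufs1, with a lowest value of 466 CPM per kilobase, and Sdhc, with a highest value of 451. The assembly factor Bcs1l was the least abundant of the 8 tested genes on this scale. With the lengths of the principal transcripts in place of the longest, the order was the same, and Ndufa12 moved from between 148 and 196 to between 185 and 244 CPM per kilobase. Which transcripts the cells used was not measured, so the order rests on these annotated lengths. Pseudogenes named for Cox5b and Ndufa12 are annotated in RefSeq, and reads that match both a gene and its pseudogene may have been split or left out.

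The levels of the divergent partners of Ndufs1, Ndufb3 and Bcs1l were set beside those of the 3 genes, and whether a pair shared a pattern was not tested. Eef1b2, a translation elongation factor gene beside Ndufs1, averaged 642 ± 127 CPM in WT and 666 ± 61.6 in KO (SD, n = 3), with a log2 fold change of 0.05 ± 0.15 (SE), beside -0.08 for Ndufs1. Fam126b, beside Ndufb3, averaged 240.0 ± 20.8 CPM in WT and 214 ± 44.8 in KO, with log2 fold changes of -0.17 ± 0.17 (SE) for Fam126b and -0.14 for Ndufb3. Zfp142, a zinc finger gene beside Bcs1l, averaged 141 ± 16.2 CPM in WT and 161 ± 19.1 in KO, with log2 fold changes of 0.19 ± 0.16 (SE) for Zfp142 and -0.11 for Bcs1l. The 3 partners had an edgeR adjusted p of 0.994.

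Among the other genes that lie nearest to a respiratory gene, Gamt, which encodes an enzyme of creatine synthesis, lies 1356 bases from Ndufs7. It averaged 4928 ± 674 CPM in WT and 5872 ± 275 in KO (SD, n = 3), with every KO replicate above every WT replicate, a log2 fold change of 0.25 ± 0.13 (SE) and an edgeR adjusted p of 0.994. Tcf3, a transcription factor gene near Uqcr11, averaged 747 ± 40.8 CPM in WT and 806 ± 23.6 in KO, also without overlap of the replicates and with an edgeR adjusted p of 0.994. Every KO replicate lay above every WT replicate in 4.45% of all genes tested. Nr2c1 near Ndufa12 and Actr1b near Cox5b overlapped between the genotypes, and the olfactory receptor gene Olfr1416 near Ndufa10 had 0 counts. Ino80dos, a long noncoding RNA gene, overlaps Ndufs1 and averaged 68.5 ± 10.5 CPM in WT and 62.1 ± 4.30 in KO. RefSeq also places the microRNA gene Mir6900 inside Ndufa10, the noncoding gene Gm46172 within Sdhc and a tRNA gene within Ndufs7, none of them a gene of the count table. No source used here says whether strand was used in counting, so reads of overlapping genes cannot be told apart.

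No gene of the wider pathway passed the edgeR test either, where 0% of all genes tested did. Lists of subunits, assembly factors, electron carriers, citric acid cycle enzymes and transcriptional regulators gave 13 further genes that are described here, all tested. Of these, 0 were called in either direction by edgeR, and 0 had an unadjusted p under 0.05, where 3.98% of all genes tested had one. Of the 13, 4 had a log2 fold change above 0 and 9 below, with a median of -0.10. Among all genes tested, 50.5% lay below 0 and the median was -0.01. WT and KO replicates lay apart in 1 of the 13, where 8.49% of all genes tested lay apart in either direction. Unlike those of the 8 respiratory genes, the 95% intervals of Sdhaf4, Tmem70 and Pdss2 reached below -0.5 on the log2 scale, to -0.69, -0.57 and -0.66.

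Of 18 complex V subunits listed, only Atp5d, a subunit of the central stalk of ATP synthase, was in the table, at 1026 ± 113 CPM in WT and 1098 ± 113 in KO.

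Assembly factors had 5 of 56 listed genes in the table, among them Bcs1l, 1 of the 8 respiratory genes tested, at -0.11. The median log2 fold change of the 5, with Bcs1l included, was -0.19. Of these, 1 lay above 0 and 4 below, where 50.5% of all genes tested lay below. Sdhaf4, which assists the flavoprotein subunit of complex II, stood at 154, 138 and 147 CPM in WT and at 101, 126 and 121 CPM in KO. Every KO replicate of Sdhaf4 lay below every WT replicate, the only such case among these 13 genes, as in 4.04% of all genes tested. Its log2 fold change was -0.34 ± 0.16 (SE), with an unadjusted p of 0.0632 and an adjusted p of 0.994 in edgeR, while Sdhc, in the complex that Sdhaf4 helps to build, lay at -0.05. Tmem70, a factor for ATP synthase and complex I, averaged 334 ± 28.5 CPM in WT and 277 ± 31.4 in KO (SD, n = 3), and the KO replicate at 313 CPM lay above the lowest WT replicate at 309 CPM. Cox20, which stabilises a mitochondrially encoded subunit of complex IV, averaged 247 ± 14.0 CPM in WT and 218 ± 26.8 in KO. Coa5, another factor for complex IV, averaged 515 ± 79.9 CPM in WT and 517 ± 8.31 in KO.

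Among the mobile electron carriers and the genes of ubiquinone, the lipid that carries electrons from complexes I and II to complex III, 3 of 17 listed genes were in the table. Coq8a, an atypical kinase needed for ubiquinone synthesis, averaged 434 ± 24.7 CPM in WT and 438 ± 57.0 in KO (SD, n = 3), and Coq10b, a ubiquinone-binding protein, averaged 163 ± 14.4 CPM in WT and 164 ± 12.3 in KO. Pdss2, a subunit of the enzyme that makes the side chain of ubiquinone, averaged 69.97 ± 9.63 CPM in WT and 63.1 ± 7.34 in KO, with overlapping replicates and a log2 fold change of -0.15 ± 0.22 (SE). Fh1, fumarate hydratase, which acts after complex II in the citric acid cycle, averaged 657 ± 33.9 CPM in WT and 599 ± 82.5 in KO. Besides Sdhc it was the only 1 of 22 listed genes of the cycle in the table.

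Regulators of respiratory gene transcription had 4 of 15 listed genes in the table, none of them called. All 4 had a log2 fold change below 0, as did 50.5% of all genes tested. Polrmt, the mitochondrial RNA polymerase, averaged 549.8 ± 62.3 CPM in WT and 528 ± 77.3 in KO (SD, n = 3). Creb1, a nuclear transcription factor, averaged 528 ± 108 CPM in WT and 492 ± 67.8 in KO. Tfam, which packages mitochondrial DNA, averaged 355 ± 29.9 CPM in WT and 349 ± 33.3 in KO. Tfb2m, a transcription factor of mitochondria, averaged 176 ± 14.6 CPM in WT and 159 ± 10.1 in KO, and its log2 fold change of -0.14 ± 0.14 (SE) was the lowest of the 4.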

How the data were processed

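RNA from sorted oligodendrocytes was sequenced in 12 libraries. The authors deposited raw read counts per gene and library, which were used unscaled. The submitters' processing notes name build mm10 and, among other tools, HISAT2, featureCounts and SAMtools 1.4.1; no source used here gives their parameters. Of 2398 complete lines, 2226 matched a RefSeq GRCm38 symbol, and 1 incomplete line was left out. The 2 libraries of a replicate were summed, and the genotypes were compared with edgeR 4.0.16 (R 4.3.3), using TMM factors (0.951 to 1.05), filterByExpr, robust quasi-likelihood fitting and Benjamini-Hochberg adjustment over 1484 genes. The SE was taken as the fold change on the log2 scale over the square root of F. The fit was checked on simulated counts. Alternatives were other size factors, filters, DESeq2 1.42.0, limma-voom (limma 3.58.1), a replicate block, other uses of the libraries, and leaving out each replicate. Named genes were the 9 members, overlapping and nearest genes of the table, up to 2 further genes per list (Sdhaf4, Cox20, Tfam, Pdss2 and Tfb2m were added after their values were seen). The 3 genes nearest in profile and some other genes are not reported here. The members and lists were chosen with earlier results of these data known. The edgeR p-values set the difference between genotypes against a variation between replicates that was estimated with information from all genes tested.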

Additional observations from a re-analysis of the deposited data

How the results depend on the processing

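The count of 0 respiratory genes called held under all 17 alternatives, and adjusted p-values of the 8 genes ranged from 0.265 to 1.00 over them. Over all genes, the count of 0 called became 7 with DESeq2 on 6 replicates and 49 with edgeR on 12 libraries as separate samples, which treats the libraries of a replicate as independent; for DESeq2 the cause was not tested. It stayed at 0 in the other 15 alternatives. Of 136 fold changes of the 8 genes under the alternatives, 130 kept their sign, and all lay between -0.26 and 0.16. Cox5b changed sign with library totals only (-0.0026). Leaving out 1 replicate at a time, 5 values changed sign. The fold change ranged from -0.16 to 0.030 for Ndufs1 (above 0 without WT replicate 2 or KO replicate 2) and from -0.12 to 0.0089 for Ndufs7. It ranged from -0.045 to 0.16 for Ndufa10 (below 0 without WT replicate 3) and from -0.17 to 0.021 for Ndufa12, and Ndufs7 and Ndufa12 lay above 0 without KO replicate 3. The median of the 8 ranged from -0.099 to -0.012. Over 1420 genes, the deviations of WT and KO replicates with the same number correlated at -0.019, -0.29 and 0.12. Pairs with different numbers ranged from -0.31 to 0.33. Deviations from the mean of 3 replicates depend on each other, so these values cannot tell whether replicates with the same number were handled together. The replicate block left 0 genes called and a median of -0.060. The spread between replicates exceeded counting error in all 8 genes.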
